A study of Homo sapiens with 84 samples.

Results

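The genes described here are 8 members of the transcription factor network that B cells use when they leave the germinal centre and turn towards plasma cells: IRF4, BATF, SPIB, PRDM1, MIR155HG, ETV6, FOXP1 and IRF8. They were chosen by name, with earlier results of these data known, and are 8 of the 20046 genes with a symbol on the array. Each was represented by its brightest probe. PRDM1 had 4 probes to choose from, FOXP1 had 5 and the other members had 1 each. RNA of established human lymphoma cell lines was hybridised to Illumina bead arrays, and the series lists 84 samples, 1 for each line, treatment and time. Each of the 8 lines was treated with PQR309, which blocks PI3K and mTOR, or with the solvent DMSO, and was sampled at 4, 8 and 12 h. Only for RIVA, TMD8, SUDHL2 and U2932 were there also arrays with idelalisib, which blocks the delta form of PI3K, with duvelisib, which blocks its delta and gamma forms, and with ibrutinib, which blocks BTK, at those times. OCILY1, OCILY18, DOHH2 and SUDHL10 had PQR309 and DMSO only. Doses are not in the labels. The labels name no lymphoma class; in common usage the lines that were given every inhibitor are activated B-cell-like and the lines that were given PQR309 only are germinal centre B-cell-like. The labels do not say whether cultures were separate, so every line counts as 1 sample and p-values measure the spread between lines.

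IRF4 is the factor that, at high levels, drives B cells towards plasma cells and that activated B-cell-like lymphoma needs for its survival. It binds DNA weakly alone and is brought to composite sites by an ETS partner, SPIB or PU.1, or by an AP-1 partner, BATF with a JUN protein. B-cell receptor signals reach these genes through BTK and PI3K to NF-kB. PRDM1 encodes BLIMP1, the repressor that completes plasma cell differentiation and that SPIB holds down in this lymphoma. MIR155HG is the host transcript of miR-155, a microRNA that NF-kB and AP-1 are known to induce. IRF8 is the related factor that prevails in germinal centre cells, and ETV6 and FOXP1 are an ETS-family and a forkhead-family repressor.

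MIR155HG lies on chromosome 21 at chr21:25562145-25575168 (RefSeq, GRCh38.p14), and the microRNA is cut from its transcript, so the arrays read the host RNA and not the mature microRNA. Its mature arms are printed because the host RNA was among the members with the deepest falls; capitals mark the seed, bases 2 to 8, by which a microRNA recognises its targets.
hsa-miR-155-5p, chr21:25573983-25574006, plus strand: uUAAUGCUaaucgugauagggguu
hsa-miR-155-3p, chr21:25574022-25574043, plus strand: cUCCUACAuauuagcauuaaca

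The 300 bases around the start of MIR155HG and of BATF (250 before to 50 after it, plus strand) are shown because both members fell with PQR309, idelalisib and ibrutinib in the 4 lines given these drugs. Capitals mark matches, on either strand, to any of 5 motifs: AP-1 (TGANTCA), the ETS-IRF composite (GGAA and GAAA with 2 bases between), the interferon response element (GAAA and GAAA with 2 bases between), NF-kB (GGGA and TTTCC with 1 base between) and forkhead (GTAAACA). The ETS-IRF and interferon response motifs can overlap.
MIR155HG, chr21:25561895-25562194: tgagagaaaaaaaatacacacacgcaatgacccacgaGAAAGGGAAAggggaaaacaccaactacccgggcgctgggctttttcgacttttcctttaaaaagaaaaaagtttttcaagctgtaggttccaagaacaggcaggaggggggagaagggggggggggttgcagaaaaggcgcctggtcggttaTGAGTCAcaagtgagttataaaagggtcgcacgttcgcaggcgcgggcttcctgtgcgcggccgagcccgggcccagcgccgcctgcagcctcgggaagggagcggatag
BATF, chr14:75522219-75522518: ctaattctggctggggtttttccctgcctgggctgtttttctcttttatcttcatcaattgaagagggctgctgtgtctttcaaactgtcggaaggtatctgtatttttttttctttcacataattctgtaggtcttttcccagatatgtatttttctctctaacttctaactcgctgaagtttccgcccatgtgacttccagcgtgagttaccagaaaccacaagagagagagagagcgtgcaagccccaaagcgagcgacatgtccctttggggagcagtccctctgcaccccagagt

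The MIR155HG window held TGAGTCA 60 bases before the start and GAAAGGGAAA 213 bases before it, and the BATF window held none of the 5 motifs. Of all 35116 RefSeq promoter windows of this length, 7.71% held the AP-1 letters, 3.57% the interferon response letters, 3.42% the forkhead letters, 2.82% the ETS-IRF letters and 0.558% the NF-kB letters. All 8 members had windows in the RefSeq table, 15 in all, and 4 of these held a match. Besides MIR155HG these were 1 of 2 PRDM1 windows, with TGACTCA 42 bases before the start, and 2 of 6 FOXP1 windows, with TGATTCA in one and TGTTTAC, a forkhead match on the other strand, in the other. The single windows of IRF4, SPIB and ETV6 and the 2 windows of IRF8 held none. A match is only a run of letters, and a window without one says nothing about binding elsewhere.

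The lines carried the marks of B cells. CD79A, CD79B, MS4A1, CD22 and BLK were above the detection limit, a log2 level of 6.74, with DMSO in all 8 lines, while the PAX5 probe was below it in all of them. CD3D, CD3E and CD3G, which define T cells, and CSF1R and VWF, of macrophages and endothelium, were below it in every line. Above it in all lines were 0 of the 6 genes that mark T cells, 1 of the 4 that mark myeloid cells and 0 of the 4 that mark stroma. FCGR3A, at 6.85 to 7.15, was above it in 8 of 8 lines, LCK and CD14 in 6 each, LYZ and PECAM1 in 3 each, CD2 in 2, and CD8A and COL1A1 in 1 each. All 8 members passed the filter on dim probes, and 12441 genes were tested over the 8 lines. The limit comes from 3 OCILY1 arrays. DMSO and PQR309 arrays of RIVA, TMD8, SUDHL2 and U2932 and DMSO arrays of DOHH2 differ between the deposited tables, with rank correlations of 0.816 to 0.910 over all probes where the other 54 arrays rank alike. The 8-line comparisons therefore rest on the normalized table, the comparisons of inhibitors on the raw table, and for the 4 lines both are given.

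With DMSO the members differed widely between lines. The gap between the highest and the lowest line mean was at least 5.19 for MIR155HG, 3.90 for SPIB, at least 3.90 for BATF, 3.70 for IRF4, at least 3.25 for PRDM1, 2.84 for IRF8, 2.49 for ETV6 and 0.94 for FOXP1 on the log2 scale, against a median of 0.77 over all tested genes. The gaps given as at least run to a lowest line that was below the detection limit, which stood in for it. MIR155HG was highest in TMD8 (11.92 ± 0.11, SD over 3 times) and SUDHL2 (11.82 ± 0.27), whose arrays overlapped. It was lower in DOHH2 (10.86 ± 0.26), U2932 (10.25 ± 0.09), RIVA (8.76 ± 0.16), OCILY18 (7.55 ± 0.63) and SUDHL10 (6.92 ± 0.11), each apart from its neighbours in this order. In OCILY1 it was at 6.62 ± 0.04, with 0 of 3 arrays above the limit.

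IRF4 was highest in TMD8 (10.56 ± 0.19), which stood apart from the next line. DOHH2 (9.72 ± 0.12), U2932 (9.51 ± 0.26), RIVA (9.15 ± 0.26), OCILY18 (8.72 ± 0.47) and SUDHL2 (8.28 ± 0.40) followed, with neighbours overlapping. SUDHL10 (6.94 ± 0.04) and OCILY1 (6.86 ± 0.07) lay apart from these and barely above the limit. The germinal-centre-type line DOHH2 thus had a higher mean IRF4 level than 3 of the 4 lines given every inhibitor, though its arrays overlapped those of U2932.

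BATF, the AP-1 partner, was high in SUDHL2 (10.63 ± 0.69), TMD8 (10.11 ± 0.21) and RIVA (8.88 ± 0.16). It was low in DOHH2 (7.22 ± 0.22) and U2932 (7.22 ± 0.02), which overlapped. OCILY18 (6.66 ± 0.06), SUDHL10 (6.61 ± 0.10) and OCILY1 (6.59 ± 0.07) had 0 of 3 arrays above the limit, so a fall there could not be measured.

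SPIB, the ETS partner, was above the limit on every DMSO array. TMD8 (11.81 ± 0.16) stood apart at the top, RIVA (10.12 ± 0.16) and U2932 (9.89 ± 0.18) overlapped, and OCILY18 (9.11 ± 0.09), OCILY1 (9.03 ± 0.60), DOHH2 (8.52 ± 0.28), SUDHL2 (8.40 ± 0.30) and SUDHL10 (7.91 ± 0.21) followed with no gap between neighbours. PRDM1 was highest in TMD8 (9.99 ± 0.08), next in SUDHL2 (9.29 ± 0.11) and DOHH2 (9.26 ± 0.05), and lower in U2932 (7.43 ± 0.08) and RIVA (7.34 ± 0.18). It was close to the limit in OCILY18 (6.88 ± 0.10) and below it in SUDHL10 (6.53 ± 0.05) and OCILY1 (6.52 ± 0.03). TMD8 was thus the top line for IRF4, SPIB, PRDM1 and MIR155HG.

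IRF8 ran the other way in TMD8, its lowest line (8.74 ± 0.11), and was highest in OCILY1 (11.58 ± 0.13), the lowest line for IRF4. The other 6 lines lay between 9.95 in DOHH2 and 10.76 in U2932. ETV6 was highest in RIVA (9.35 ± 0.12) and lowest in SUDHL10 (6.86 ± 0.05) and OCILY1 (6.87 ± 0.21), which overlapped. FOXP1 differed least, between 7.79 ± 0.13 in RIVA and 6.85 ± 0.11 in SUDHL10.

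**Figure D1:**
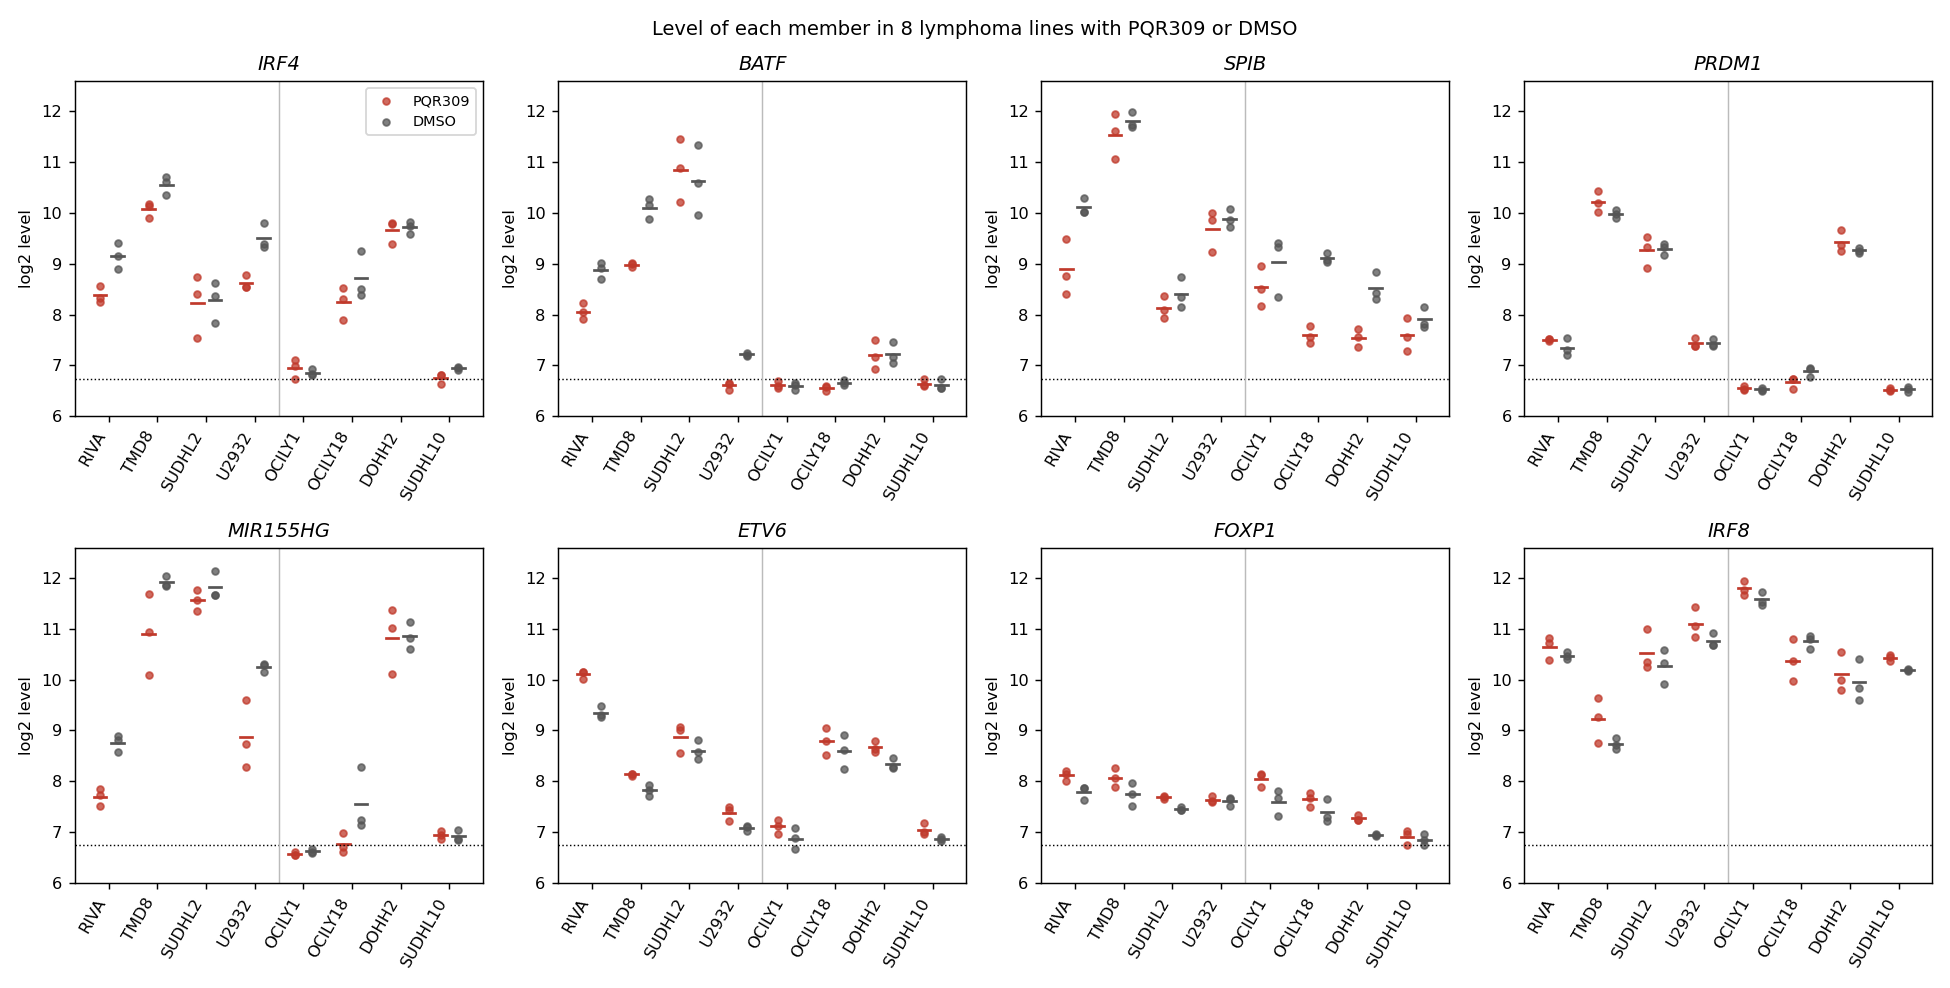
Log2 level of each member (vertical axis, authors' normalized values) by cell line, with PQR309 in red left of DMSO in grey; points are the arrays at 4, 8 and 12 h, short bars their mean, the dotted line the detection limit of 6.74, and the grey vertical line divides the 4 lines given every inhibitor (left) from the 4 given PQR309 only. With DMSO, TMD8 has the highest mean for IRF4, SPIB, PRDM1 and MIR155HG and the lowest for IRF8, and overlaps SUDHL2 for MIR155HG. With PQR309, the MIR155HG mean is higher in SUDHL2 (11.56) than in TMD8 (10.91).

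Between the lines given every inhibitor and the lines given PQR309 only, the DMSO level of no member passed the test. MIR155HG averaged 10.69 ± 1.5 (SD, n = 4) in lines given every inhibitor and 7.99 ± 1.95 in lines given PQR309 only (limma adjusted p = 0.772). With OCILY1, the line below the limit, set to the limit, the difference was at least 2.67. BATF averaged 9.21 ± 1.52 in lines given every inhibitor. Of the others only DOHH2 was above the limit, and with the limit standing in for the 3 lines below it the difference was at least 2.35 (adjusted p = 0.667). IRF4 and SPIB differed by 1.32 and 1.41, with adjusted p of 0.813 and 0.779, and IRF8 by -0.56. The level of 0 of 8 members kept the line sets apart without overlap, against 3.63% of all tested genes, and limma called 0% of these genes (3 members at an unadjusted p under 0.05, as were 6.33% of genes). DOHH2 overlapped the lines given every inhibitor for IRF4, BATF, PRDM1 and MIR155HG.

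With PQR309, over 3 times and 8 lines, SPIB, MIR155HG and IRF4 fell and ETV6 and FOXP1 rose. These are 5 of 8 members, 2 higher and 3 lower, where limma called 26.5% of the 12441 tested genes, 12.5% higher and 14% lower. As the members were chosen with earlier results of these data known, this count is no independent comparison. The members' median difference was -0.13, against -0.00012 over all tested genes. BATF, IRF8 and PRDM1 did not pass. Values below are log2 differences, PQR309 minus DMSO within a line, with limma's SE over lines. In such bulk RNA, fewer cells with a transcript and less of it per cell cannot be told apart.

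SPIB had line means of 7.55 at the lowest, 8.34 at the median and 11.54 at the highest with PQR309, against 7.91, 9.07 and 11.81 with DMSO. Within lines it was lower in 8 of 8, by -0.66 ± 0.15 (SE, n = 8, limma adjusted p = 0.0102), or to 0.63 of the DMSO level. OCILY18 (-1.52), RIVA (-1.23) and DOHH2 (-0.97) had the largest falls, OCILY1 was at -0.49, and SUDHL10 (-0.31), SUDHL2 (-0.28), TMD8 (-0.27) and U2932 (-0.19) had the smallest. Of the 24 differences by line and time 23 were below 0; the exception was U2932 at 8 h (0.13). Lines of both sets were among the largest and the smallest differences. On raw intensities of 6 lines SPIB was at -0.67 and did not pass (adjusted p = 0.098).

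MIR155HG line means ran from 6.57 over a median of 8.28 to 11.56 with PQR309, and from 6.62 over 9.50 to 11.92 with DMSO. It was lower in 7 of 8 lines, by -0.57 ± 0.16 (n = 8, adjusted p = 0.0269). U2932 (-1.38), RIVA (-1.06), TMD8 (-1.01) and OCILY18 (-0.79) carried the fall, SUDHL2 was at -0.26, and OCILY1 (-0.05), DOHH2 (-0.03) and SUDHL10 (0.02) lay near 0. OCILY1, counted among the 7 lower lines, was below the limit with both treatments and SUDHL10 close to it, whereas DOHH2 had a high level to lose. In OCILY18 1 of 3 PQR309 arrays was above the limit, so the size of its fall was not fully measured. The call was lost without RIVA (-0.50, adjusted p = 0.0678), TMD8 (-0.51, 0.0655), U2932 (-0.45, 0.0598) or OCILY18 (-0.54, 0.0655), and without the 4 h arrays (-0.56, 0.0689).

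IRF4 line means ran from 6.75 over a median of 8.31 to 10.07 with PQR309, and from 6.86 over 8.93 to 10.56 with DMSO. The difference was -0.35 ± 0.11 (n = 8, adjusted p = 0.0329), with 7 of 8 lines lower. U2932 (-0.89), RIVA (-0.77), TMD8 (-0.49) and OCILY18 (-0.48) were lowest, then SUDHL10 (-0.19), DOHH2 (-0.06), SUDHL2 (-0.05) and OCILY1 (0.09). The same 4 lines thus led for IRF4 and MIR155HG. In SUDHL10 and OCILY1 IRF4 was barely above the detection limit with DMSO, and 2 of 3 PQR309 arrays were above it in each. A fall in these lines could hardly be measured. The call was lost without RIVA (-0.29, adjusted p = 0.0796), TMD8 (-0.33, 0.0727), U2932 (-0.28, 0.0722) or OCILY18 (-0.34, 0.0767), and without the 4 h arrays (-0.25, 0.167).

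BATF line means ran from 6.55 over a median of 6.92 to 10.86 with PQR309, and from 6.59 over 7.22 to 10.63 with DMSO. Its difference of -0.30 ± 0.14 (n = 8) did not pass (adjusted p = 0.151). TMD8 (-1.12), RIVA (-0.82) and U2932 (-0.61) were lower at all 3 times, and SUDHL2, the line with the most BATF, was higher at all 3 (0.23). In U2932 the PQR309 arrays were all below the limit, so the fall there was at least 1.40-fold. The 4 lines given PQR309 only were between -0.11 and 0.03, and 3 of these were below the limit without drug.

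PRDM1, the gene that IRF4 activates and SPIB represses, was at 0.04 ± 0.05 (n = 8, adjusted p = 0.57), with a 95% interval of -0.06 to 0.14. Its line means ran from 6.52 over a median of 7.47 to 10.22 with PQR309, and from 6.52 over 7.39 to 9.99 with DMSO. TMD8 (0.23), DOHH2 (0.17) and RIVA (0.16) were the highest differences and OCILY18 (-0.22) the lowest. In OCILY1 and SUDHL10 PRDM1 was below the detection limit with both treatments, so a fall there could not be measured. In OCILY18 the PQR309 arrays were all below it, so the size of that fall was not fully measured. The mean and its interval include these lines, so they do not bound the change where PRDM1 was measurable.

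ETV6 rose in 8 of 8 lines, by 0.32 ± 0.06 (n = 8, adjusted p = 0.00306). Its line means ran from 7.05 over a median of 8.40 to 10.11 with PQR309, and from 6.86 over 8.08 to 9.35 with DMSO. RIVA (0.76), the line with the most ETV6, lay well above the other 7, which ran from 0.19 in SUDHL10 to 0.34 in DOHH2. FOXP1 rose in 8 of 8 lines, by 0.25 ± 0.05 (n = 8, adjusted p = 0.00385), with differences between 0.04 in U2932 and 0.45 in OCILY1. On raw intensities of 6 lines it was at 0.20 and did not pass (adjusted p = 0.0568). Its line means ran from 6.90 over a median of 7.66 to 8.12 with PQR309, and from 6.85 over 7.53 to 7.79 with DMSO. Of all tested genes 8.05% were higher in every line and 8.96% lower in every line.

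IRF8, the germinal centre member, had line means from 9.22 over a median of 10.48 to 11.80 with PQR309, and from 8.74 over 10.37 to 11.58 with DMSO. Its difference of 0.19 ± 0.08 (n = 8) did not pass (adjusted p = 0.096). It was higher in 7 of 8 lines, most in TMD8 (0.48) and U2932 (0.35), and lower in OCILY18 (-0.38). Without OCILY18 it was 0.27 and passed (adjusted p = 0.00418).

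At 4 h the members called were IRF4 (-0.56 ± 0.13, adjusted p = 0.0176), SPIB (-0.81 ± 0.17, 0.0088), MIR155HG (-0.59 ± 0.15, 0.0214), FOXP1 (0.27 ± 0.07, 0.023) and IRF8 (0.23 ± 0.04, 0.00569), all from limma with n = 8, where 17.3% of tested genes were called, 7.88% higher and 9.44% lower. IRF4, SPIB and MIR155HG were lower in 8 of 8 lines at that time, as were 6.49% of tested genes, and IRF8 was higher in 8 of 8, as were 4.73%. These counts include OCILY1, where MIR155HG at 4 h was below the detection limit with both PQR309 (6.61) and DMSO (6.66). In SUDHL10 the IRF4 level with PQR309 at 4 h (6.62) was below it too. On raw intensities of 6 lines none of these 5 passed at 4 h, with IRF4 at -0.78, SPIB at -0.89, MIR155HG at -0.93, FOXP1 at 0.22 and IRF8 at 0.17 (adjusted p from 0.0624 to 0.237). At 8 h 4 members were called (16% of genes): SPIB at -0.66, MIR155HG at -0.51, ETV6 at 0.31 and FOXP1 at 0.26. At 12 h 3 were called (20.5% of genes): SPIB at -0.50, ETV6 at 0.42 and FOXP1 at 0.23. At 4 h MIR155HG did not pass without OCILY18 (-0.49, adjusted p = 0.0515), nor FOXP1 without RIVA (0.22, 0.0613). At 8 h SPIB did not pass without RIVA (-0.57, adjusted p = 0.0575), OCILY1 (-0.64, 0.0611), OCILY18 (-0.53, 0.0503) or DOHH2 (-0.59, 0.0634), nor FOXP1 without OCILY1 (0.23, 0.0509), nor MIR155HG without any of RIVA, TMD8, U2932, OCILY1, OCILY18 or DOHH2 (adjusted p from 0.0513 to 0.107). FOXP1 did not pass at 4 h (0.08, adjusted p = 0.144) or at 8 h (0.12, 0.0513) when its kept probes were averaged in place of taking the brightest.

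IRF4, called at 4 h, was at -0.36 ± 0.12 at 8 h (adjusted p = 0.0606) and at -0.14 ± 0.13 at 12 h (adjusted p = 0.483). In OCILY18 it was at -1.37, -0.21 and 0.15 at 4, 8 and 12 h, in DOHH2 at -0.43, 0.02 and 0.23 and in SUDHL2 at -0.30, -0.21 and 0.37. RIVA (-0.84, -0.90 and -0.56) and U2932 (-1.02, -0.85 and -0.79) stayed low, and TMD8 was lower at 8 and 12 h (-0.72 and -0.57) than at 4 h (-0.17). The change of the IRF4 difference from 4 to 12 h was 0.42 ± 0.16 (adjusted p = 0.115) and that of SPIB 0.31 ± 0.11 (adjusted p = 0.0919); neither passed, where limma called 10.4% of tested genes (2 members at an unadjusted p under 0.05, as were 25.1% of genes). IRF4 passed without TMD8 (0.53, adjusted p = 0.0419) and SPIB without OCILY1 (0.39, 0.0265).

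MIR155HG took opposite courses in different lines. In TMD8 it was at -0.36, -0.91 and -1.77 at 4, 8 and 12 h and in U2932 at -0.71, -1.42 and -2.0, a fall that grew with time. In RIVA it was at -1.37, -1.07 and -0.73, a fall that was largest at 4 h. In DOHH2 it was at -0.51, -0.13 and 0.54. In OCILY18 it was at -1.31, -0.52 and -0.53. The OCILY18 arrays with PQR309 at 8 and 12 h (6.71 and 6.61) were below the detection limit. With DMSO this line went from 8.28 at 4 h to 7.24 and 7.15, so the size of its later falls could not be measured. The mean change from 4 to 12 h over lines was -0.02 ± 0.25 (adjusted p = 0.974). BATF in TMD8 (-0.93, -1.15 and -1.29) and RIVA (-0.65, -0.79 and -1.01) moved further from 0 with time. IRF8 spread out as well: at 12 h it was at 0.91 in TMD8, 0.74 in U2932 and -0.90 in OCILY18. With DMSO alone, 0 of 8 members passed for 12 h minus 4 h (7.64% of tested genes; 3 members at an unadjusted p under 0.05, as were 24.6% of genes), with SPIB at 0.33 and MIR155HG at -0.27.

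**Figure D2:**
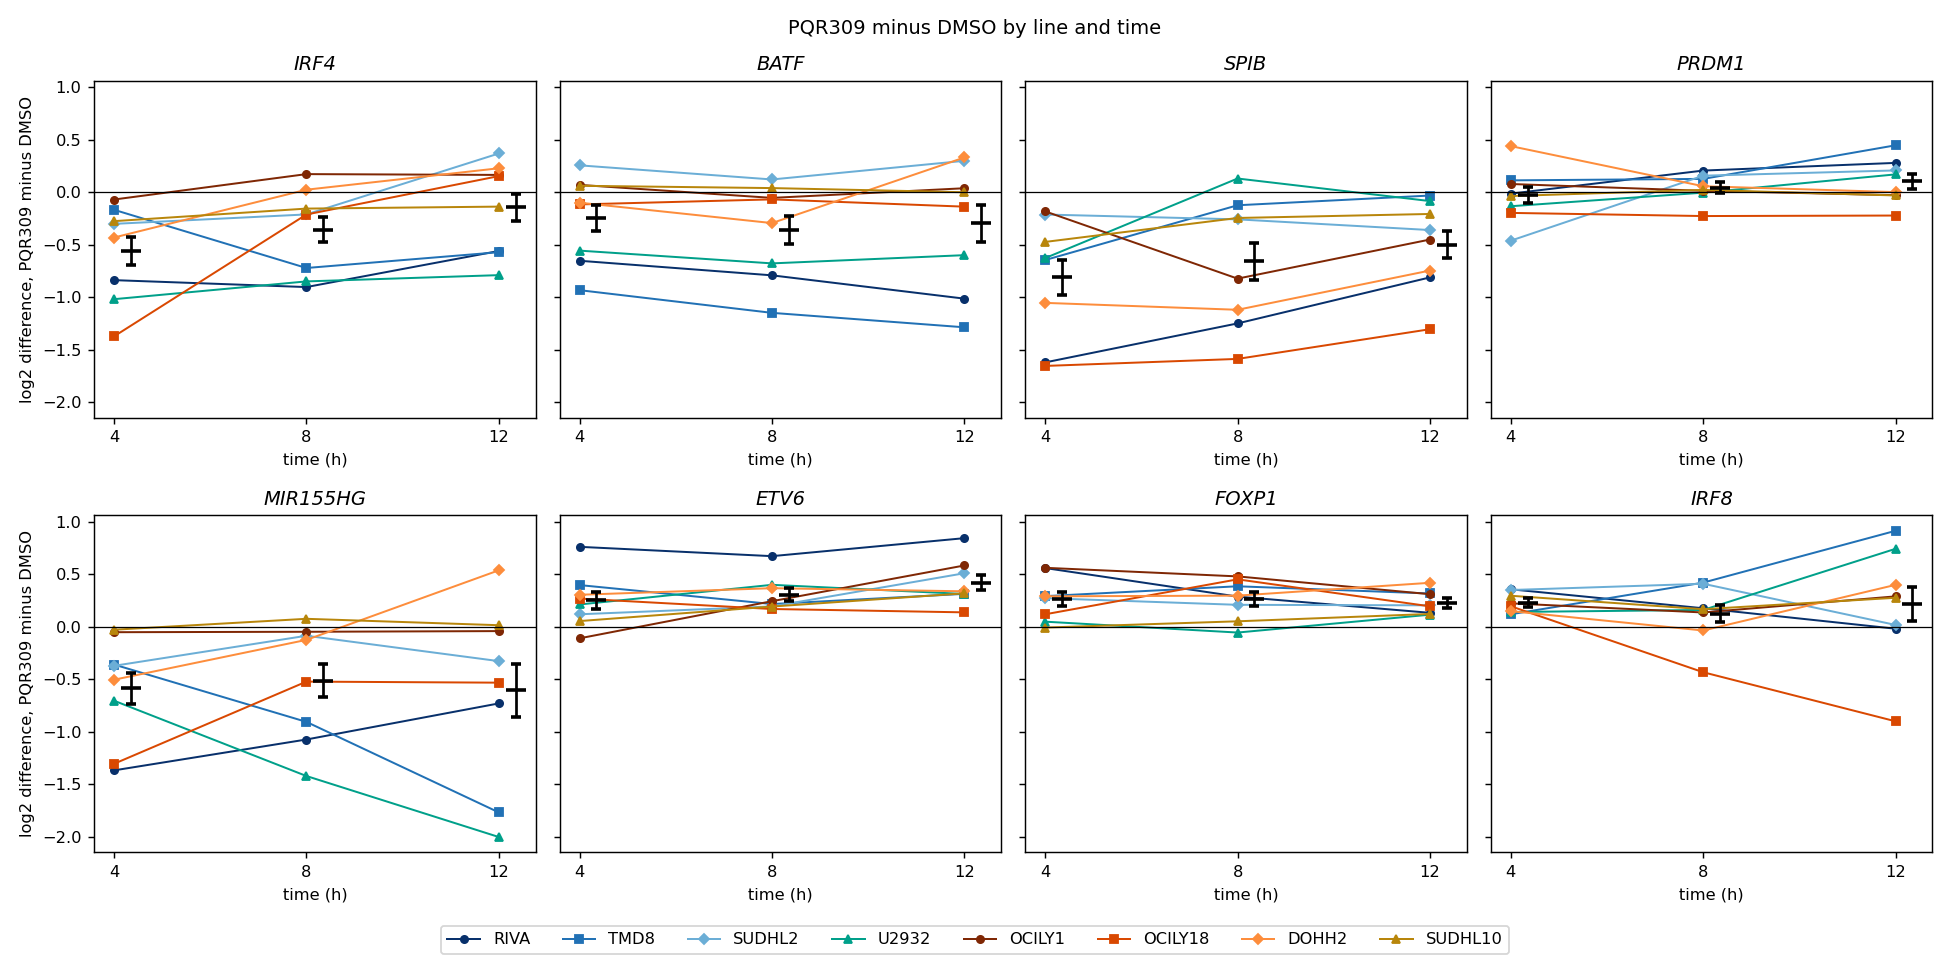
Log2 difference, PQR309 minus DMSO (vertical axis), against time in h for each member; coloured lines are the 8 cell lines and black bars, drawn to the right of each time, are the mean ± limma SE (n = 8). MIR155HG at 12 h spreads from -2.0 in U2932 to 0.54 in DOHH2, while ETV6 lies above 0 in every line at 8 and 12 h.

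The PQR309 differences of no member passed between the sets of lines, and limma called 0% of tested genes in this comparison (2 members at an unadjusted p under 0.05, as were 4.36% of genes). MIR155HG averaged -0.93 ± 0.47 (SD, n = 4) in lines given every inhibitor and -0.21 ± 0.38 in lines given PQR309 only. The difference was -0.72 with a 95% interval of -1.28 to -0.16 (limma adjusted p = 0.998). Of the lines given PQR309 only, OCILY1 was below the limit with both treatments, and in OCILY18 1 of 3 PQR309 arrays was above it. BATF averaged -0.58 ± 0.58 in lines given every inhibitor and -0.02 ± 0.06 in the others (adjusted p = 0.998). In 3 of those others BATF was below the limit with both treatments, so a fall there could not be measured and no difference between the sets is given. IRF4 averaged -0.55 ± 0.37 in lines given every inhibitor and -0.16 ± 0.24 in the others. Those others include OCILY1 (6.86 with DMSO) and SUDHL10 (6.94), where IRF4 was barely above the limit of 6.74, so a fall there could hardly be measured. SPIB ran the other way, with -0.49 ± 0.49 in lines given every inhibitor and -0.82 ± 0.54 in the others (0.33, interval -0.34 to 1.0). The differences of 0 of 8 members kept the sets apart without overlap, against 2.59% of all tested genes.

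Across the 24 differences by line and time, IRF4 varied with MIR155HG (Pearson r = 0.76) and BATF (r = 0.57), and MIR155HG with BATF (r = 0.69). SPIB did not follow them, with r of 0.15 to IRF4, 0.03 to MIR155HG and -0.05 to BATF, and its closest member was IRF8 (r = 0.54). The points share 8 lines and their DMSO arrays, so these values only describe the arrays. They include OCILY1, OCILY18 and SUDHL10, where BATF was below the detection limit with both treatments, and OCILY1, where MIR155HG was. Among genes outside the set, the 3 most like IRF4 were SGPP2 (r = 0.83), NFKBID (0.77) and TNFAIP3 (0.75), the last being the A20 brake on NF-kB. For BATF they were IER3 (0.86), DUSP2 (0.84) and TNF (0.82), all known as immediate response genes. For MIR155HG they were BMP2K (0.77), CD83 (0.75) and SGPP2 (0.75), and for SPIB SNX29 (0.80), RAB15 (0.76) and SLC1A4 (0.74).

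For RIVA, TMD8, SUDHL2 and U2932 the raw table holds other DMSO and PQR309 values than the normalized table, read here as a second set of arrays. On this set PQR309 was again compared with DMSO. There BATF (-0.86 ± 0.17, adjusted p = 0.00414), MIR155HG (-1.14 ± 0.23, 0.00495) and IRF4 (-0.66 ± 0.19, 0.0346) fell, 3 of 8 members, where 13.5% of 12559 tested genes were called, 6.28% lower (limma's joint fit of 20 line means, n = 4). This fit pools the residual spread of all 5 treatments, so a member has 1 SE for every inhibitor. SPIB was at -0.45 ± 0.21 (adjusted p = 0.167), ETV6 at 0.25 ± 0.09 (0.066), IRF8 at 0.29 ± 0.11 (0.104), FOXP1 at 0.21 ± 0.09 (0.143) and PRDM1 at 0.09 ± 0.13. BATF did not pass without TMD8 (-0.80, adjusted p = 0.0556), MIR155HG without U2932 (-1.12, 0.0599), and IRF4 without RIVA, TMD8 or U2932 (adjusted p from 0.131 to 0.252).

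In the same 4 lines on the normalized arrays BATF was at -0.58, MIR155HG at -0.93, IRF4 at -0.55 and SPIB at -0.49, and 0 members passed in a fit of these 4 lines alone, an alternative chosen after seeing the data (adjusted p of 0.153, 0.0522 and 0.0764 for BATF, MIR155HG and IRF4). Of 32 pairs of a member and a line, 27 had the same sign on both sets, with a median gap of 0.16. The largest gap, 0.97, was that of MIR155HG in TMD8, at -1.99 on the raw arrays and -1.01 on the normalized ones. BATF in SUDHL2 had opposite signs, -0.27 on the raw and 0.23 on the normalized arrays, and PRDM1 matched in 1 of 4 lines. Whether both sets were hybridised separately, and whether they come from the same RNA, is not stated.

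**Figure D3:**
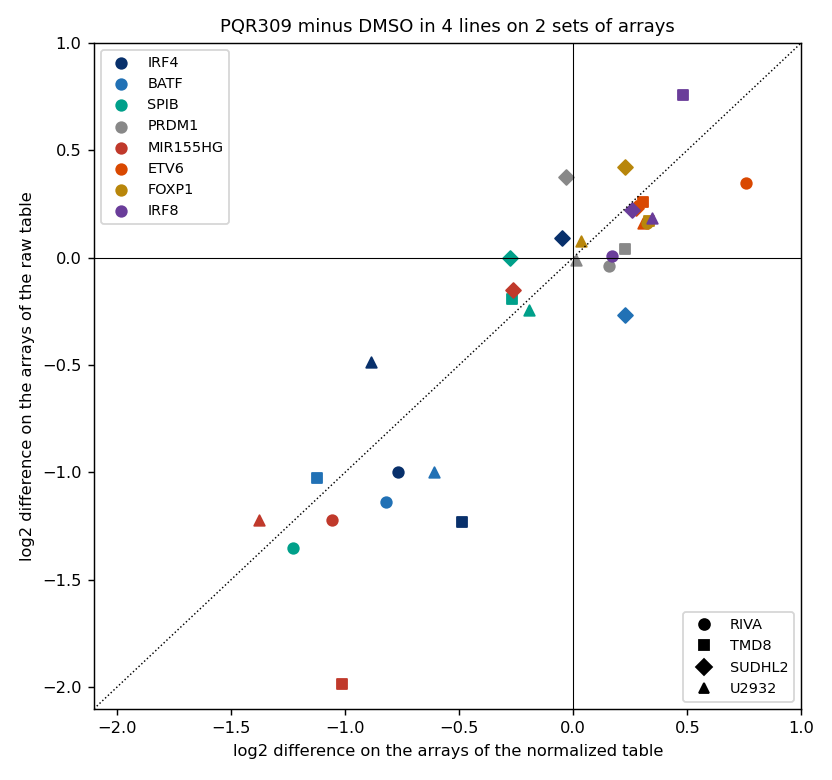
Log2 difference, PQR309 minus DMSO averaged over 3 times, on the arrays of the raw table (vertical axis) against those of the normalized table (horizontal axis); each point is 1 member (colour) in 1 of 4 lines (symbol), and the dotted line marks equal values. Of 32 points 27 have the same sign on both, and MIR155HG in TMD8 lies farthest from the dotted line.

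Idelalisib, duvelisib and ibrutinib were set against the same DMSO arrays in these 4 lines, so the 4 inhibitor differences share their controls and are given side by side. MIR155HG was lower in 47 of 48 differences by line, time and inhibitor and BATF in 46 of 48; IRF4 was lower in 38 and SPIB in 35. With idelalisib, BATF (-1.01 ± 0.17, adjusted p = 0.00779), MIR155HG (-1.11 ± 0.23, 0.0176) and IRF4 (-0.78 ± 0.19, 0.0335) fell, 3 members, where 4.67% of tested genes were called, 1.92% lower. With ibrutinib, MIR155HG (-1.24 ± 0.23, adjusted p = 0.0262) and BATF (-0.88 ± 0.17, 0.0262) fell, 2 members, where 2.97% were called, 1.78% lower. With duvelisib 0 members passed, where limma called 0.0159% of tested genes (4 members at an unadjusted p under 0.05, as were 14.6% of genes): MIR155HG was at -1.06 ± 0.23 (adjusted p = 0.082) and BATF at -0.86 ± 0.17 (0.0703), lower in 4 of 4 lines each, as were 7.02% of genes.

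With median in place of quantile scaling 0 members were called for PQR309, idelalisib or ibrutinib, while MIR155HG was at -1.27, -1.16 and -1.26 and BATF at -0.94, -1.03 and -0.82 with these drugs. Without RIVA or without TMD8, 0 members were called for idelalisib and for ibrutinib, and without U2932 1 for idelalisib and 0 for ibrutinib, in fits of 3 lines. Without RIVA MIR155HG was at -1.10 with idelalisib and -1.29 with ibrutinib, and BATF at -0.78 and -0.68. Without TMD8 MIR155HG was at -0.75 with idelalisib and -0.94 with ibrutinib, and BATF at -0.91 and -0.89. Without U2932 MIR155HG was at -1.21 with idelalisib and -1.20 with ibrutinib, and BATF at -1.16 and -0.92. Without SUDHL2, 3 were called for duvelisib: IRF4 (-0.87, adjusted p = 0.0288), MIR155HG (-1.41, 0.0288) and BATF (-1.01, 0.0411).

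MIR155HG was lowest in TMD8 and nearest 0 in SUDHL2 under every inhibitor. In TMD8 it was at -1.99 with PQR309, -2.21 with idelalisib, -2.12 with duvelisib and -2.13 with ibrutinib. In RIVA it was at -1.22, -1.15, -1.24 and -1.10, and in U2932 at -1.22, -0.81, -0.87 and -1.35, in the same order of drugs. In SUDHL2 it was at -0.15, -0.28, -0.03 and -0.37. In TMD8 the fall grew with time under each drug, to -2.51, -2.96, -2.73 and -2.71 at 12 h. In RIVA it was largest at 4 h, at -2.13, -2.22, -2.26 and -2.27, and was between -0.70 and -0.40 at 12 h, a course like that on the normalized PQR309 arrays. The 4 drugs share 1 RIVA DMSO array per time, at 9.43, 8.40 and 8.28 at 4, 8 and 12 h. With the drugs MIR155HG in RIVA was between 7.17 and 7.30 at 4 h and between 7.58 and 7.87 at 12 h.

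BATF was at -1.14 with PQR309, -1.69 with idelalisib, -1.34 with duvelisib and -1.50 with ibrutinib in RIVA. In TMD8 it was at -1.02, -1.29, -1.16 and -0.85, and in U2932 at -1.0, -0.53, -0.52 and -0.78. In SUDHL2, where DMSO arrays of the raw table gave the highest BATF level of the 4 lines (11.94), it was at -0.27, -0.51, -0.41 and -0.39. At 4 h BATF in TMD8 was at 0.13, -0.58, -0.05 and 0.16 in the same order of drugs. The 4 drugs share 1 TMD8 DMSO array per time, at 9.68, 11.36 and 10.66 at 4, 8 and 12 h. On the normalized arrays the PQR309 difference of BATF in TMD8 at 4 h was -0.93.

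IRF4 differences were highest in SUDHL2 under every inhibitor, a contrast of 1 line with 3 that was not tested. In TMD8 it was at -1.23 with PQR309, -1.22 with idelalisib, -1.18 with duvelisib and -1.06 with ibrutinib, in RIVA at -1.0, -1.09, -0.98 and -0.60, and in U2932 at -0.49, -0.64, -0.45 and -0.62. In SUDHL2 it was at 0.09, -0.16, 0.49 and 0.62. Of 36 differences in RIVA, TMD8 and U2932 35 were below 0, against 3 of 12 in SUDHL2. The differences of a line share its DMSO arrays, so these counts only describe the arrays. On the normalized arrays IRF4 with PQR309 was at -0.05 in SUDHL2. Over the 4 lines IRF4 was at -0.53 ± 0.19 with duvelisib (adjusted p = 0.212) and -0.41 ± 0.19 with ibrutinib (0.219), and without SUDHL2 it passed with ibrutinib (-0.76, adjusted p = 0.0272).

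SPIB varied most between inhibitors. It was at -0.45 ± 0.21 with PQR309, -0.59 ± 0.21 with idelalisib (adjusted p = 0.105), -0.44 ± 0.21 with duvelisib (0.341) and 0.02 ± 0.21 with ibrutinib (0.956). RIVA was at -1.35, -1.16, -0.82 and -0.06 in this order of drugs, and TMD8 at -0.20, -0.92, -0.52 and -0.39. U2932 was at -0.24, -0.63, -0.61 and 0.07, and SUDHL2 at -0.0011, 0.35, 0.19 and 0.48. With idelalisib SPIB passed when SUDHL2 was left out (-0.90, adjusted p = 0.0402).

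ETV6 was above 0 in 12 of 12 differences with ibrutinib and 11 of 12 with PQR309, but at 0.23 ± 0.09 with ibrutinib it did not pass (adjusted p = 0.13). It was at 0.14 ± 0.09 with duvelisib and -0.05 ± 0.09 with idelalisib. FOXP1 was at 0.21 ± 0.09 with PQR309 and between -0.02 and -0.01 with the other 3. IRF8 was highest in TMD8 under every inhibitor, at 0.76, 0.38, 0.55 and 0.59. PRDM1 was below 0 in RIVA and U2932 and above 0 in TMD8 with idelalisib, duvelisib and ibrutinib alike.

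**Figure D4:**
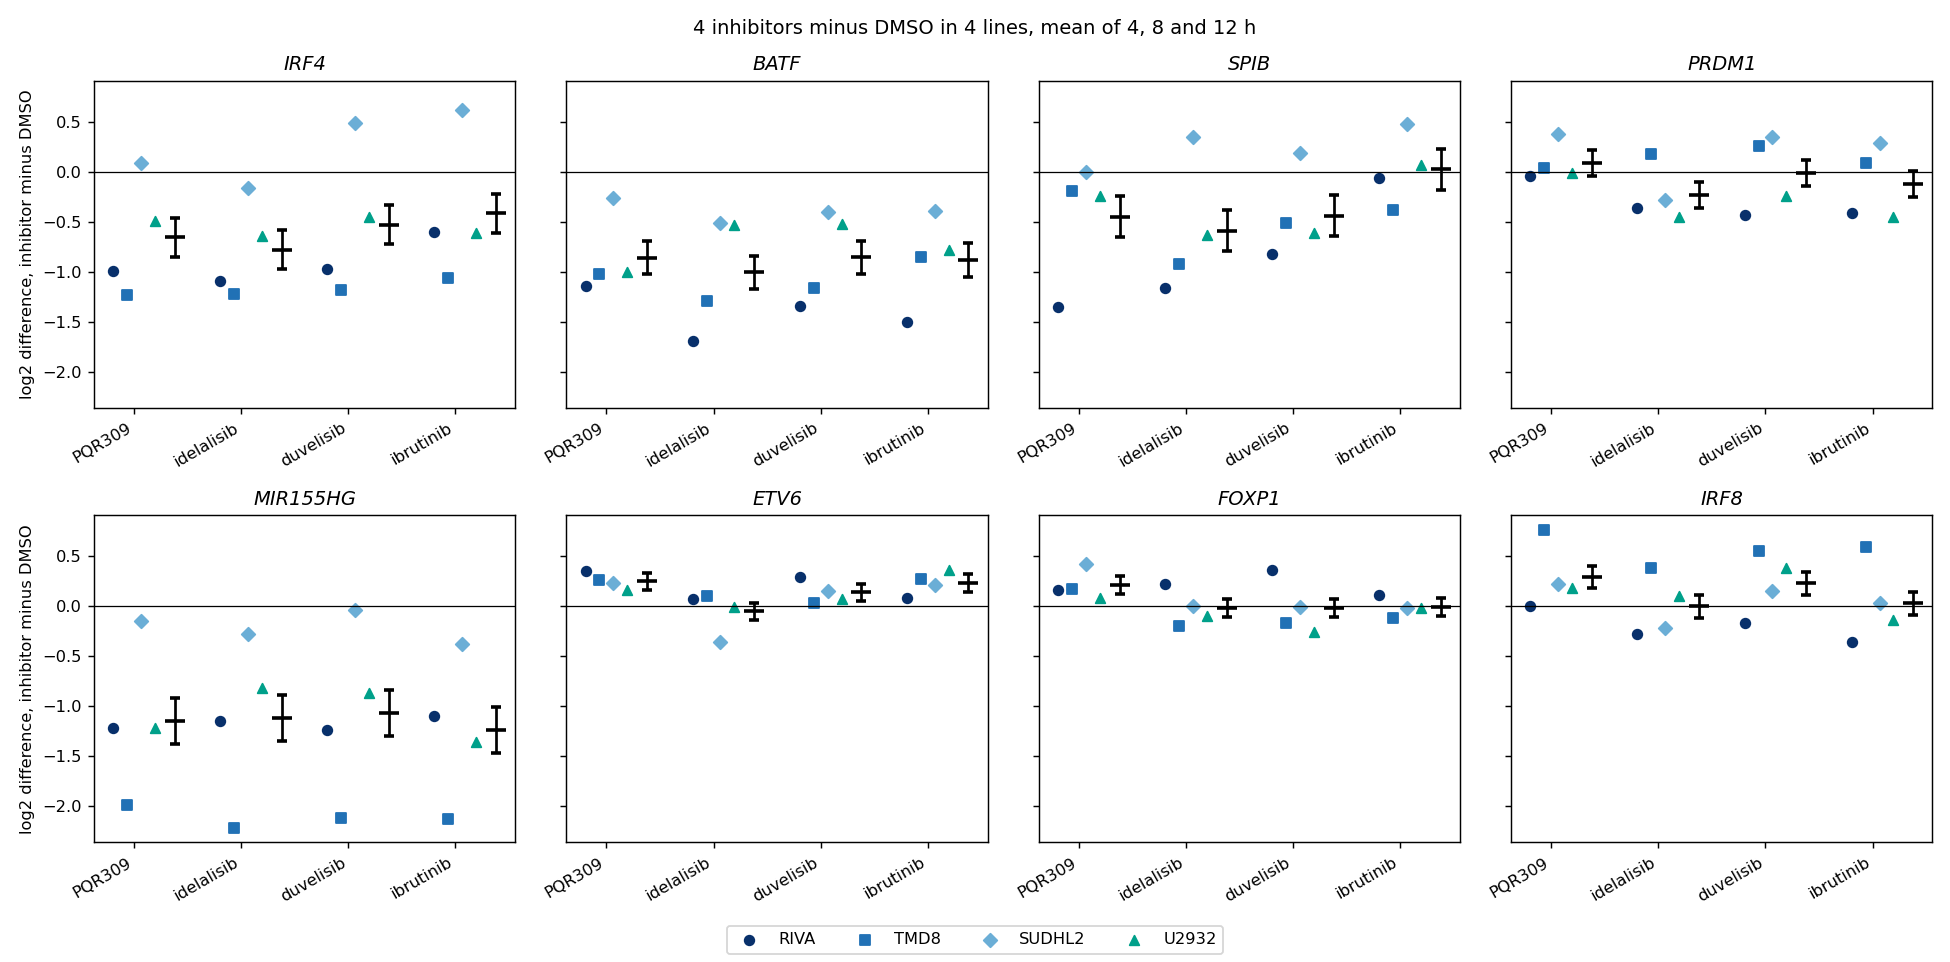
Log2 difference, inhibitor minus DMSO averaged over 4, 8 and 12 h (vertical axis), for PQR309, idelalisib, duvelisib and ibrutinib in RIVA, TMD8, SUDHL2 and U2932 on the raw table's arrays; coloured symbols are lines and black bars the mean ± limma SE (n = 4). MIR155HG and BATF lie below 0 in every line under every inhibitor, and SUDHL2 lies nearest 0 for MIR155HG and highest for IRF4.

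In 6 comparisons of one inhibitor with another, at unstated doses, 0 members passed with p-values adjusted over all 12559 genes. For PQR309 minus idelalisib limma called 0.0876% of genes (4 members at an unadjusted p under 0.05, as were 9.69% of genes), and the member with the lowest adjusted p was ETV6 (0.30, interval 0.12 to 0.48, adjusted p = 0.236). For PQR309 minus ibrutinib it called 0.0557% (3 members unadjusted, 11.3% of genes), with SPIB at -0.47 (interval -0.91 to -0.04, adjusted p = 0.415). For PQR309 minus duvelisib it called 0% (1 member unadjusted, 7% of genes), with BATF at -0.0011 (interval -0.35 to 0.35). SPIB was the member that set ibrutinib most apart from the PI3K inhibitors, without passing. Ibrutinib minus idelalisib had it at 0.61 (interval 0.18 to 1.05, adjusted p = 0.996), with 0.00796% of genes called and 2 members and 4.82% of genes at an unadjusted p under 0.05. Ibrutinib minus duvelisib had it at 0.46 (interval 0.03 to 0.90), with 0% called and 1 member and 3.4% of genes at an unadjusted p under 0.05.

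Duvelisib and idelalisib are related purine-bearing molecules, built on an isoquinolinone in duvelisib and a quinazolinone in idelalisib. Between them limma called 0% of genes (1 member at an unadjusted p under 0.05, as were 2.16% of genes), and the intervals of duvelisib minus idelalisib were -0.44 to 0.54 for MIR155HG, -0.20 to 0.50 for BATF, -0.16 to 0.66 for IRF4 and -0.29 to 0.59 for SPIB, so differences within these bounds cannot be told apart from none.

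Among genes of the receptor pathway upstream of the set, from CD79A to NF-kB, 3 of 22 tested rose and 4 fell with PQR309 over the 8 lines (median -0.02, against -0.00012 over all genes), where 12.5% of all tested genes rose and 14% fell, so the counts of this and the following lists are read against these shares. The lists too were chosen with earlier results of these data known. The kinase SYK (0.33 ± 0.05, adjusted p = 0.00139) and the receptor chain CD79B (0.32 ± 0.09, 0.0262) rose. The adaptor MYD88 (-0.31 ± 0.04, adjusted p = 0.000762) and its kinase IRAK1 (-0.27 ± 0.04, 0.00194) fell in 8 of 8 lines. In the 4 lines, where 13.5% of all genes were called with PQR309, 4.67% with idelalisib, 2.97% with ibrutinib and 0.0159% with duvelisib, 1 rose and 3 fell with PQR309, among them TNFAIP3 (-0.48 ± 0.14, adjusted p = 0.0355) and NFKB1 (-0.35 ± 0.11, 0.049). In the same lines TNFAIP3 also fell with idelalisib (-0.62 ± 0.14, adjusted p = 0.0261), the single call there. With PQR309 in the 4 lines SYK passed (0.45, limma adjusted p = 0.0156), but CD79B (0.20, 0.118), MYD88 (-0.24, 0.0657) and IRAK1 (-0.16, 0.108) did not. Over the 8 lines TNFAIP3 (-0.25, 0.0517) and NFKB1 (-0.12, 0.317) did not pass.

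Of 20 tested partners of IRF4 and BATF from the AP-1, IRF and ETS families, 5 rose and 3 fell with PQR309 over the 8 lines (median 0.01), against 12.5% and 14% of all genes. BACH2, which competes with BATF for AP-1-type sites, rose by 0.64 ± 0.15 (adjusted p = 0.0123), and the ETS factors ELF1 (0.41 ± 0.10, 0.0118) and ETS1 (0.32 ± 0.07, 0.0105) rose. IRF1 rose by 0.29 ± 0.08 (adjusted p = 0.0181). The 3 that fell, named after their values were seen, were lower in 8 of 8 lines: SPI1, which encodes PU.1, the other ETS partner of IRF4 (-0.29 ± 0.07, adjusted p = 0.0134), JUNB, a JUN partner of BATF (-0.21 ± 0.05, 0.0148), and the lymphoid factor IKZF1 (-0.21 ± 0.05, 0.0169). On the raw arrays of the 4 lines, SPI1 with PQR309 was at 0.08 (limma adjusted p = 0.563), higher in 3 of 4 lines, and IRF1 at -0.03 (0.953). BACH2 (0.48, 0.0868), ELF1 (0.19, 0.222) and JUNB (-0.13, 0.409) did not pass there. ETS1 (0.46, 0.0092) and IKZF1 (-0.24, 0.031) passed there. With ibrutinib in the 4 lines JUN was the single call among 21 (-0.98 ± 0.22, adjusted p = 0.0382), and with idelalisib IKZF1 (-0.43 ± 0.07, 0.00779).

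Of 15 tested genes known as targets of miR-155, 7 rose and 1 fell with PQR309 over the 8 lines (median 0.11, against -0.00012 over all genes), where 12.5% of all genes rose and 14% fell. HBP1 (0.68 ± 0.09, adjusted p = 0.00105) and TP53INP1 (0.65 ± 0.18, 0.0211) rose most, followed by FOXO3 (0.33 ± 0.05, 0.00139) and ETS1; the 1 that fell was SPI1. HBP1, TP53INP1 and FOXO3 were higher in 8 of 8 lines, as were 8.05% of tested genes. The part of the microRNA in these values was not tested. In the 4 lines 4 rose and 0 fell with PQR309, where 13.5% of all genes were called, among them SOCS1 (0.35 ± 0.07, adjusted p = 0.00633). Over the 8 lines SOCS1 was at 0.05 and did not pass (limma adjusted p = 0.405). HBP1 (0.79, 0.00361) and ETS1 (0.46, 0.0092) passed in the 4 lines as well, but TP53INP1 (0.38, 0.0756) and FOXO3 (0.17, 0.229) did not. With idelalisib 1 rose (SMAD5, 0.33 ± 0.08, adjusted p = 0.0296; 4.67% of all genes called), with ibrutinib 0 (2.97%) and with duvelisib 0 (0.0159%).

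Of 4 tested genes that BLIMP1 represses, 0 rose and 0 fell with PQR309 over the 8 lines. In the 4 lines ID3 rose with PQR309 (0.43 ± 0.12, adjusted p = 0.0227) and with ibrutinib (0.55 ± 0.12, 0.0353), and CIITA fell with idelalisib (-0.29 ± 0.07, 0.0285). Of 8 plasma cell genes 0 rose and 1 fell over the 8 lines, close to the 14% of all genes that fell. It was FKBP11, a chaperone of the secretory pathway (-0.33 ± 0.08, adjusted p = 0.0161). In the 4 lines it fell with PQR309 (-0.62 ± 0.12, adjusted p = 0.00343), idelalisib (-0.52 ± 0.12, 0.0249) and ibrutinib (-0.61 ± 0.12, 0.0278), and the elongation factor ELL2 (-0.44 ± 0.10, 0.00878) and the plasma cell marker SDC1 (-0.17 ± 0.05, 0.0383) fell with PQR309; SDC1 fell with idelalisib as well (-0.20 ± 0.05, 0.0381). With duvelisib 0 genes of these lists passed.

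Of 7 tested genes used to recognise the activated class, 2 rose and 1, IRF4 itself, fell with PQR309 over the 8 lines, where 26.5% of all genes were called. PIM2, a survival kinase, rose by 0.53 ± 0.09 (adjusted p = 0.00233) and CREB3L2 by 0.25 ± 0.08 (0.0358). Of 5 tested germinal centre genes 1 was called, near that share: MME, which encodes CD10, rose (0.67 ± 0.14, adjusted p = 0.00646). The others did not pass: ASB13 (0.23) and MYBL1 (0.21) were above 0, and ITPKB (-0.03) and SERPINA9 (-0.36, adjusted p = 0.0505) below it. On the raw arrays of the 4 lines MME with PQR309 was at 0.43 (limma adjusted p = 0.0637), higher in 2 of 4 lines.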

How the data were processed

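Illumina bead arrays of 8 lymphoma lines were analysed. The normalized table, as deposited, gives log2 values; the authors normalized the 48 DMSO and PQR309 arrays apart from the other 36, and GenomeStudio is named, without a version, in the submitters' processing notes. The deposited raw table holds probe intensity for 81 arrays and, in 3 columns, a detection p-value. Raw intensities of 60 arrays of 4 lines were corrected with normexp (offset 50), quantile normalized and log2 transformed in limma. The 48 normalized arrays served the 8-line comparisons.

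The brighter 50% of probes were kept. Tests were limma on within-line differences (n = 8), on 4 against 4 lines, or on 20 line means with line as a block. Profiles of a line correlated across treatments at 0.925 to 0.954 and 0.877 to 0.980, so lines pair the samples. P-values are two-sided and Benjamini-Hochberg adjusted over all tested genes, threshold 0.05. In all, 18 comparisons were made. Named genes were the 8 members and the 3 genes most like each of IRF4, BATF, SPIB and MIR155HG. At most 4 passed genes of largest effect per list were named as well. The 3 partner genes that fell, 1 of them also a miR-155 target, were named after their values were seen. So were the germinal centre genes that did not pass. Members, lists and tests were chosen with earlier results of these data known. Alternatives were other probe rules, filters, scalings, pairing, lines and times. The number of arrays limits the precision. Simulated data tested the fits. Software was R 4.3.3, limma 3.58.1, Python 3.11.15, pandas 2.3.3 and matplotlib 3.10.9.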

Additional observations from a re-analysis of the deposited data

Results flagged for a closer look

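Of 48 groups of 4 or 8 line values examined, 3 held a line far from all others, and chance alone sets apart about 1 in 20 such groups. ETV6 with PQR309 over 8 lines was at 0.76 in RIVA, and the next line was at 0.34. IRF8 with PQR309 over 8 lines was at -0.38 in OCILY18, and the next line was at 0.17. BATF with PQR309 in the 4 lines on the raw arrays was at -0.27 in SUDHL2, and the next line was at -1.0. The ETV6 rise was called without RIVA as well.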

How the results depend on the processing

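Each comparison was recomputed under every alternative that applied. Of 1376 alternative values of members 47 changed sign, 25 of them on leaving out a line, none of a called result, and the largest had a size of 0.179; the cause was not tested. Over 3 times, 5 members were called, against 3 with no filter on dim probes, 3 with raw intensities, 3 without the 4 h arrays and 3 to 5 on leaving out a line. At 4 h 5 were called, against 0 with raw intensities. At 8 h 4 were called, against 2 with no filter, 0 with raw intensities and 2 to 4 on leaving out a line. At 12 h 3 were called, against 1 with raw intensities, and for the change from 4 to 12 h 0 were called, against 0 to 1 on leaving out a line. The raw alternative left out OCILY1 at times with no intensity column, and DOHH2, whose DMSO arrays differ between the tables while its PQR309 arrays do not. Over 3 times it lost the calls of SPIB (-0.67) and FOXP1 (0.20), and it was not run for the DMSO levels of the line sets. In the 4 lines, PQR309 called 3 members, against 0 with median scaling, 0 with the authors' normalized values (added after seeing the data) and 1 to 3 on leaving out a line. Idelalisib called 3, against 0 with median scaling, 0 without the 8 h arrays and 0 to 4 on leaving out a line. Duvelisib called 0, against 2 without the 12 h arrays and 0 to 3 on leaving out a line. Ibrutinib called 2, against 0 with median scaling, 0 without the 8 h arrays and 0 to 3 on leaving out a line. Without the replicate block, which ignores that each line is paired with itself, 0 members were called for PQR309 over 3 times, at 4 h, at 8 h and at 12 h, and 0 for PQR309, idelalisib and ibrutinib in the 4 lines; the large differences between lines then enter the error, and the comparisons of line sets have no such pairing.

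The values that changed sign belonged to results that were not called. For the change from 4 to 12 h, FOXP1 was 0.0276 with the mean of probes and IRF8 0.0330 with raw intensities. PRDM1 with PQR309 in 4 lines was -0.00627 with the mean of probes and -0.00823 with median scaling. With idelalisib, IRF8 was 0.105 without the 4 h arrays, ETV6 0.0381 and FOXP1 0.0168 without the 8 h arrays. With duvelisib, median scaling gave 0.157 for PRDM1 and 0.00227 for FOXP1, and leaving out the 4 h arrays gave 0.0947 and 0.00805. With ibrutinib, SPIB was -0.0422 with median scaling and -0.112 without the 12 h arrays, PRDM1 0.0657 and FOXP1 0.00464 without the 4 h arrays, and IRF8 -0.0333 without the 8 h arrays. FOXP1 for duvelisib minus idelalisib was 0.0381 with the mean of probes, 0.00244 with no background correction, 0.0700 with median scaling, 0.0142 without the 4 h arrays, 0.00431 without the 12 h arrays and 0.00237 with the authors' values.

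On leaving out a line, PRDM1 ran from -0.0932 to 0.0354 at 4 h, from -0.0032 to 0.134 with PQR309 in 4 lines and from -0.138 to 0.123 with duvelisib. FOXP1 ran from -0.0642 to 0.0152 for the change with time, -0.116 to 0.0214 between line sets, -0.0969 to 0.0419 with idelalisib, -0.144 to 0.0626 with duvelisib, -0.0503 to 0.0239 with ibrutinib and -0.0473 to 0.0531 for duvelisib minus idelalisib. IRF8 ran from -0.129 to 0.141 for the change with time, -0.129 to 0.0894 with idelalisib and -0.154 to 0.162 with ibrutinib. MIR155HG ran from -0.171 to 0.179 for the change with time and -0.0155 to 0.0965 for duvelisib minus idelalisib, ETV6 from -0.0999 to 0.053 with idelalisib and SPIB from -0.126 to 0.162 with ibrutinib. Probes near the detection limit, as BATF in 3 lines, cannot show a fall.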
